A study of Mus musculus with 6 samples.

Results

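Pericytes and vascular smooth muscle cells, together called mural cells, were picked out of single-nucleus RNA-seq libraries of the degenerating mouse retina by the genes they carried. A nucleus was selected when it held at least 1 UMI (a counted RNA molecule) of at least 2 of 8 mural genes, *Cspg4*, *Pdgfrb*, *Rgs5*, *Kcnj8*, *Abcc9*, *Notch3*, *Atp13a5* and *Myh11*, with *Pdgfrb*, *Notch3* or *Cspg4* among them. It also had to lack every UMI of *Pecam1*, *Vwf*, *Inpp5d*, *Slc17a6*, *Gad1*, *Trpm1* and *Abca8a*, which mark endothelial cells, microglia, neurons and Muller glia. Nuclei were kept if they held over 500 UMIs and 200 genes or more and if mitochondrial UMIs made up under 5%. Of the 56205 kept nuclei, 102 met this rule. A mirrored rule on endothelial genes found 190 endothelial nuclei for comparison. The mural nuclei were thus chosen by their measured UMIs of these genes. The levels of the 8 mural genes and of the 7 absent genes are therefore given below as a description. They were left out of the tests against endothelial nuclei.

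Mural cells sit on the outer face of the endothelial tube, inside a basement membrane that both cell types build. Endothelial PDGF-B acts through the receptor PDGFRB to recruit pericytes, and NOTCH3 signaling keeps the mural state. Smooth muscle of arterioles contracts with alpha smooth muscle actin and its partner proteins, whereas capillary pericytes hold little of these, and both regulate vessel width through calcium entry, potassium channels and cyclic GMP. The retina carries an unusually dense pericyte coat, which helps to keep the blood-retina barrier tight.

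All 6 libraries came from rd10 mice (strain B6.CXB1-Pde6b-rd10/J), which carry a *Pde6b* mutation that kills rods and then cones, so no library shows a retina without degeneration. Mice were injected intravitreally at P18 with saline (3 libraries, labelled 1, 2 and 6) or with 20 ng recombinant IL-27 (3 libraries, labelled 4, 5 and 10), and retinas were collected at P20. IL-27 is a cytokine that signals through the receptor chains IL27RA and gp130 (*Il6st*) to JAK kinases and STAT factors. The libraries held 36678332 to 48260748 UMIs in all. Nothing in the labels says whether each library came from a separate animal, so p-values measure the spread between these libraries, which may in part be technical. Of the barcodes kept, 367 (0.657% of distinct barcodes) occurred in more than 1 library, and 1 mural nucleus had such a barcode.

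The label held for most selected nuclei but not for all. The check used 30 further mural genes that the rule did not touch, among them *Ednra*, *Dlc1*, *Ebf1*, *Cald1* and *Vtn*. The 73 nuclei with 3 or more rule genes carried a median of 12 of these 30 genes, and 71 of the 73 fell in a single cluster of 415 nuclei that also held 133 of the 190 endothelial nuclei. The 29 nuclei with exactly 2 rule genes carried a median of 2 of the 30 genes, the same median as endothelial nuclei, and only 2 of the 29 fell in that cluster. Of these 29, 11 carried 5 or 6 of 6 horizontal-cell markers (*Onecut1*, *Onecut2*, *Lhx1*, *Prox1*, *Calb1* and *Ndrg1*), against 1 of the 73 and 0 of the 190 endothelial nuclei. The pair *Abcc9* and *Notch3* selected 11 of the 29 nuclei, and 10 of those 11 carried the horizontal-cell markers. The nuclei with 2 rule genes are therefore not called pericytes here. Among the 73, the 2 outside that cluster and the 1 with horizontal-cell markers all came from IL-27 library 5. They held 4325, 4954 and 10386 of the 63069 UMIs that this library gave to the 73. Another of its nuclei, with 1379 UMIs, carried 9 of 16 listed endothelial markers.

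**Figure D1:**
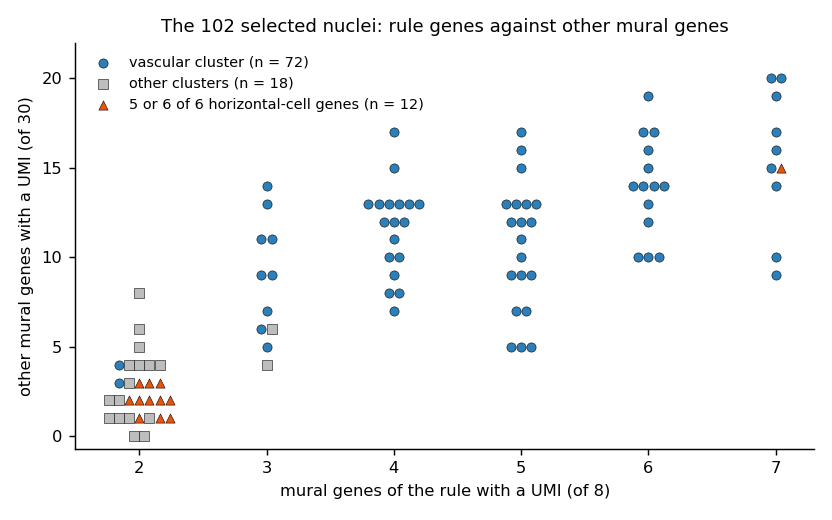
Each point is 1 of the 102 selected nuclei, with the number of rule genes detected (of 8) on the x axis and the number of 30 other mural genes detected on the y axis. Blue circles are nuclei of the vascular cluster, grey squares those of other clusters and orange triangles those with 5 or 6 of 6 horizontal-cell markers. Nuclei with 2 rule genes had a median of 2 other mural genes, against 9 at 3 rule genes and 15.5 at 7.

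The nuclei with 2 rule genes weighed heavily in the sums because they were deeper, with a median of 6489 UMIs against 2217 in the 73. They supplied 68.1%, 68.8% and 57.5% of the mural UMIs in saline libraries 1, 2 and 6, and 0%, 38.8% and 49.98% in IL-27 libraries 4, 5 and 10. The 2 treatment groups did not overlap in this share. Results are therefore given both for all 102 nuclei and for the 73 with 3 or more rule genes, and levels are those of the 73 unless stated. By library, the 102 nuclei numbered 11, 20 and 17 after saline and 11, 27 and 16 after IL-27, and the 73 numbered 7, 13 and 12 and 11, 22 and 8.

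At the edges of the rule, 471 nuclei had only 1 rule gene of the required 3. They carried a median of 2 other mural genes, and 1 of them fell in the vascular cluster. A further 76 nuclei with 3 or more rule genes were left out because of a UMI of an absent gene. They carried a median of 14 other mural genes, and 64 of them fell in the vascular cluster.

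In the 73 nuclei the rule genes were spread unevenly. *Pdgfrb*, the PDGF receptor, was detected in 71 nuclei (97.3%), *Rgs5*, a brake on G protein signaling, in 66, *Abcc9*, a subunit of ATP-sensitive potassium channels, in 64, and *Notch3* in 60. *Atp13a5*, a P-type ATPase gene of brain pericytes, was detected in 35 nuclei, the proteoglycan gene *Cspg4* (NG2) in 31 (42.5%), and *Kcnj8*, the channel pore that pairs with *Abcc9*, in 26. The background in 9694 rod nuclei, which had a median of 1742.5 UMIs, was 1.67% for *Pdgfrb* and 0.113% for *Cspg4*.

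Levels are given as CPM, a gene's counts per 1e6 UMIs of a library's summed nuclei. With sums, fewer expressing nuclei and less RNA per nucleus cannot be told apart. In saline libraries 1, 2 and 6, *Pdgfrb* stood at 1713, 1282 and 894 CPM, and in IL-27 libraries 4, 5 and 10 at 1502, 1221 and 1688 CPM. *Abcc9* stood at 3027, 3065 and 1787 CPM after saline and at 2347, 1554 and 2715 CPM after IL-27. *Kcnj8* stood at 457, 469 and 284 CPM after saline and at 93.9, 143 and 257 CPM after IL-27. The groups overlapped for *Pdgfrb* and *Abcc9*. For *Kcnj8* every saline library lay above every IL-27 library, on 48 UMIs in all. *Kcnj8* helped to choose the nuclei, so this is a description, and an effect of IL-27 on it was not tested. In nuclei with 3 or more rule genes, the groups did not overlap for 29 of 349 genes (8.31%). Of the rule genes, 5 were among those tested, and their groups overlapped.

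Few of the 73 nuclei had a UMI of the smooth muscle genes. Nuclei with 2 rule genes are not counted here. In the vascular cluster 1 of them, marked as a doublet, carried 8 of 20 listed contractile genes. *Myh11*, smooth muscle myosin, was detected in 6 of the 73 nuclei (8.22%), *Acta2*, alpha smooth muscle actin, in 2 (2.74%), and *Tagln*, transgelin, in 3 (4.11%), against 0.196%, 0.206% and 1.05% of rod nuclei. *Lmod1*, an actin nucleator of smooth muscle, was detected in 3 of the 73 (4.11%), below its 8.41% in rod nuclei, so it did not stand out from them. *Cnn1*, calponin, had 0 UMIs in the 73. Set at 3 of 73 nuclei, this allows a share of nuclei with a UMI of up to 4.11%. At a median of 2217 UMIs per nucleus, it sets no limit on the share that expresses *Cnn1*. Of these 5 genes, *Lmod1* included, 64 nuclei had none, 6 had 1 and 3 had 2 or more. In the 3 nuclei with 2 or more, *Notch3* stood at 2517 CPM and *Abcc9* at 180 CPM, and *Kcnj8* and *Atp13a5* had no UMI. In the 64 nuclei with none, *Notch3* stood at 901 CPM, *Abcc9* at 2509 CPM and *Pdgfrb* at 1445 CPM. The rule used the genes of both these sentences and a gene without a UMI may still be expressed, so the values are a description and do not divide the nuclei into pericytes and smooth muscle cells.

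To find what else sets mural nuclei apart, their sums were compared with the endothelial sums of the same libraries by edgeR, with the library as a block and without the genes that either rule used. Across the 102 nuclei, 323 of 3207 genes were higher in mural nuclei (10.1%) and 379 were lower (11.8%) at an adjusted p under 0.05. Among the 73, 358 of 2656 genes were higher (13.5%) and 447 lower (16.8%). The median log2 fold change of all genes tested was -0.08 for the 102 nuclei and -0.10 for the 73, and scaling by library totals moved the former to -0.21. The sets differed in what they called. Of 322 uniquely named genes called higher in the 102 nuclei, 137 (42.5%) had over 50% of their UMIs in the nuclei with 2 rule genes, and 24 of these 137 were also called in the 73. Of the other 185 genes, 183 were also called in the 73.

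The other mural genes that were tested lay on the mural side. Of the 30, 19 were tested in the 73 nuclei and all 19 were higher than in endothelial nuclei, with a median log2 fold change of 3.60. All 16 tested in the 102 nuclei were higher, with a median of 2.88. A gene could pass the filter on low counts through its mural sums alone, so the filter in part sets the shared direction. That direction is given as a description. The same limit applies to the medians and directions of all lists below, whose genes could pass through the sums of 1 cell type. Lists also share genes. *Ano1*, *Itga1* and *Heyl* return in the channel, basement membrane and Notch lists. The endothelial markers *Kdr*, *Tek*, *Slc2a1* and *Abcb1a* return in the VEGF or transport lists. *Ednra*, the endothelin A receptor that mediates vessel constriction (chromosome 8, 77663031-77724464, GRCm38), stood at 742, 1408 and 731 CPM in the saline libraries and at 1314, 1078 and 881 CPM in the IL-27 libraries. It had 0 UMIs in the endothelial nuclei of every library, so that it was at least 196-fold higher, set against 3 counts over all endothelial nuclei (adjusted p = 1.01e-08).

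*Dlc1*, a GTPase-activating protein, averaged 6358 ± 1055 CPM (SD, n = 6 libraries) against 174 ± 94.5 CPM in endothelial nuclei. *Cald1*, the actin-binding caldesmon, averaged 1856 ± 429 against 129 ± 63.0 CPM. *Vtn*, vitronectin, averaged 505 ± 108 against 20.8 ± 27.0 CPM. For each of these 3 genes, every mural sum lay above every endothelial sum. *Ebf1*, a transcription factor also present in endothelium, averaged 5280 ± 1056 against 1140 ± 269 CPM, a log2 fold change of 2.16 ± 0.25 (SE).

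The 10 genes with the largest higher values by the naming rule were *Ednra*, *Slc38a11*, *Carmn*, *Gm30667*, *Daam2*, *Lama2*, *Zic1*, *Cysltr2*, *4930554G24Rik* and *Slc16a12*. *Slc38a11*, of an amino acid transporter family, averaged 884 ± 313 CPM, and *Carmn*, a long noncoding RNA of smooth muscle lineage, averaged 471 ± 209 CPM. *Zic1*, a zinc finger transcription factor, averaged 181 ± 35.1 CPM, and *Cysltr2*, a cysteinyl leukotriene receptor, averaged 216 ± 86.6 CPM. These 4 genes, *Gm30667*, *Daam2* and *4930554G24Rik* had 0 UMIs in endothelial nuclei and were at least 153-fold, 79.0-fold, 32.0-fold, 39.0-fold, 70.0-fold, 43.0-fold and 37.0-fold higher. *Slc16a12*, of the monocarboxylate transporter family, averaged 848 ± 281 against 6.65 ± 7.38 CPM (log2 fold change 6.77 ± 0.49).

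**Figure D2:**
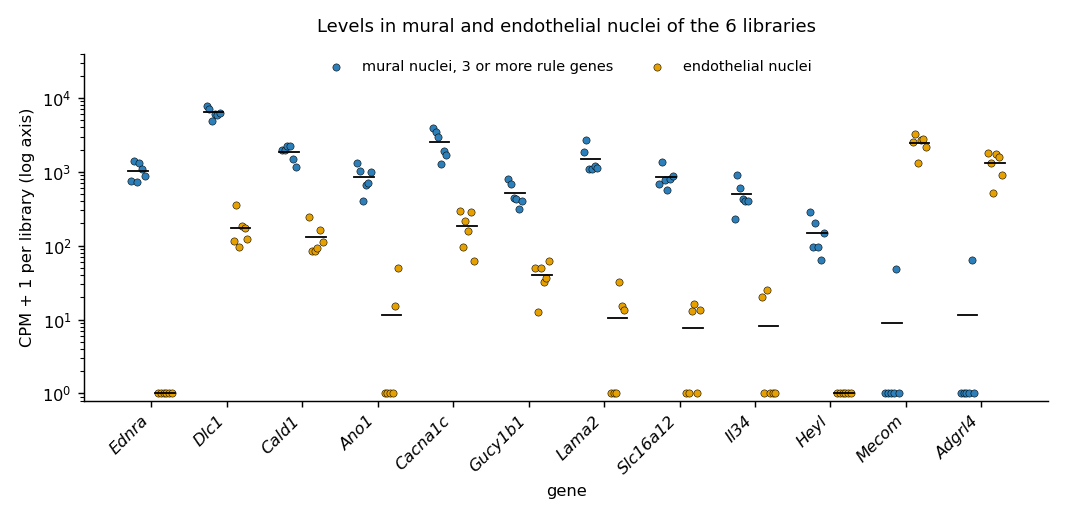
Levels of 12 genes in CPM + 1 (log y axis) in mural nuclei with 3 or more rule genes (blue) and endothelial nuclei (orange), 1 point per library and a bar at the mean of 6 libraries. *Ednra* and *Heyl* were at 0 in all endothelial sums, and *Mecom* and *Adgrl4* were at 0 in 5 of 6 mural sums.

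The 10 named genes on the lower side were *Ctla2a*, *Slco2b1*, *Paqr5*, *Adgrl4*, *Cd93*, *Dipk2b*, *Dnah3*, *Rasip1*, *Prkch* and *Mecom*. *Mecom*, a transcription factor of arterial endothelium (chromosome 3, 29951296-30548008), averaged 2472 ± 665 CPM in endothelial nuclei. In the 73 mural nuclei it had no UMI except 3 in IL-27 library 5. *Adgrl4*, an adhesion G protein-coupled receptor of endothelium, averaged 1314 ± 513 CPM against 10.6 ± 25.9 CPM, again from IL-27 library 5 alone. That library held the nucleus with 9 of 16 endothelial markers, and whether it supplied these UMIs was not tested. The other 8 genes had 0 UMIs in the 73 nuclei, and *Prkch*, protein kinase C eta, was at least 24.1-fold lower than its endothelial 391 ± 89.9 CPM. Of 16 endothelial markers, 7 could be tested and 6 were lower, with a median log2 fold change of -3.22. A marker could pass the filter on low counts through its endothelial sums alone. *Pecam1*, *Cdh5* and *Vwf* were at 0 in mural nuclei, *Pecam1* and *Vwf* by the rule. The other 6 of the 9 endothelial rule genes had 104 UMIs in the 73 nuclei, and the 9 summed to 560 CPM against 6192 CPM in endothelial nuclei. Of the 73 nuclei, 25 had none of these 9 genes and 13 had none of the 16 markers.

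**Figure D3:**
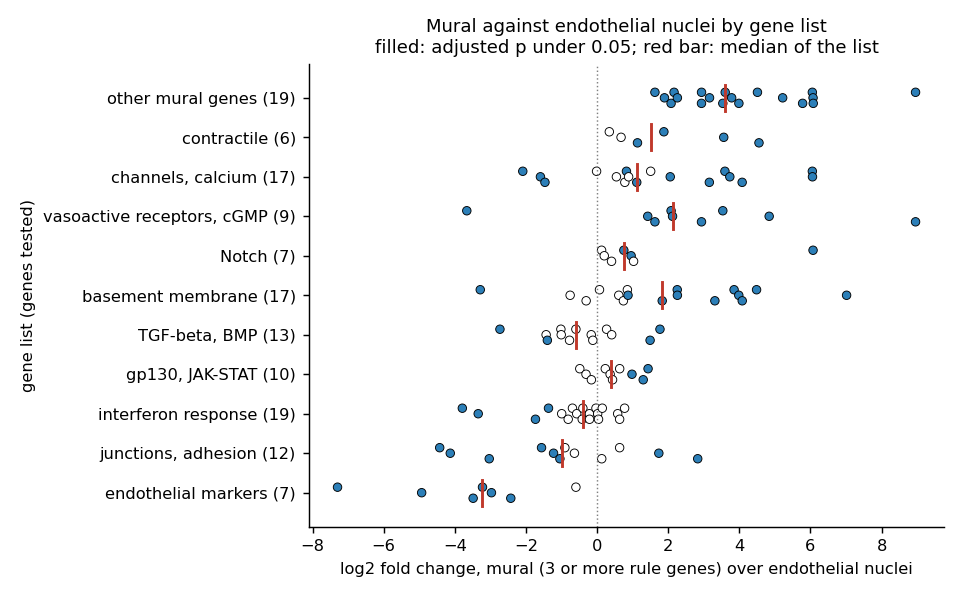
Log2 fold change of mural nuclei with 3 or more rule genes over endothelial nuclei (x axis) for the tested genes of 11 lists (y axis, number tested in brackets), with filled points for adjusted p under 0.05 and a red bar at each list's median. The 19 other mural genes all lie above 0, and the endothelial markers lie below it.

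Of 20 listed contractile genes, 6 were tested in the 73 nuclei and 4 were higher, *Casq2*, *Mylk*, *Vcl* and *Tpm1*, with a list median of 1.51 beside -0.10 for all genes. The filter could be passed through the mural sums alone, so this median is a description. Of 4 tested in the 102 nuclei 2, *Mylk* and *Vcl*, were higher. The summed level of the 20 genes ran from 1408 to 2684 CPM after saline and from 1173 to 1737 CPM after IL-27, against 347 to 557 CPM in the endothelial sums. *Mylk*, myosin light chain kinase, averaged 423 ± 96.6 against 33.1 ± 20.6 CPM (log2 fold change 3.56 ± 0.41). *Vcl*, the adhesion protein vinculin, stood at 457, 469 and 731 CPM after saline and at 610, 523 and 294 CPM after IL-27. Its endothelial sums reached at most 194 CPM, so that every mural sum was above every endothelial sum (log2 fold change 1.88 ± 0.29).

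Serum response factor binds the CArG box, a motif found in many contractile genes, and 2 of the 16 contractile genes matched to RefSeq promoters of GRCm38.p6 held a CArG box (CC, then 6 letters A or T, then GG, which reads alike on both strands) within 250 bases before to 50 after the start. These 2 of 16 promoters (12.5%) stand beside 535 of 32851 promoters of all genes (1.63%). The bases before the start of *Vcl* (chr14:20929148-20929397, + strand) and *Myl9* (chr2:156775214-156775463, + strand) are shown because they are the 2 with a match, which is in capitals. The match is a description of the letters and no evidence of binding. *Myl9*, the smooth muscle regulatory myosin light chain, was detected in 7 of the 73 nuclei.
Vcl: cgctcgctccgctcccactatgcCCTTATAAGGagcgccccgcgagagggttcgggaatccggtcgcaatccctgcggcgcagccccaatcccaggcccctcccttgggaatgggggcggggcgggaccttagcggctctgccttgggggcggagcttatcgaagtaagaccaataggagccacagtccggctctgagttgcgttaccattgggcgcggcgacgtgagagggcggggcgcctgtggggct
Myl9: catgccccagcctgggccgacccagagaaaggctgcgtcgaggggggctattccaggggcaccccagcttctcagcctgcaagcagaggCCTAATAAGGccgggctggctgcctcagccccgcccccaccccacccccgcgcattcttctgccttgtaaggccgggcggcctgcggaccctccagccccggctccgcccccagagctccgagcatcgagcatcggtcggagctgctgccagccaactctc

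Of 37 listed genes for receptors and enzymes that set vessel tone, 9 were tested in the 73 nuclei, 8 were higher and 1 was lower, with a median log2 fold change of 2.12, and in the 102 nuclei 7 of 9 were higher and 1 was lower. Of the higher genes, *Ednra*, *P2ry14*, *Gucy1a1*, *Gucy1b1* and *Pde5a* were already counted among the other mural genes. *Gucy1b1* and *Gucy1a1*, the subunits of the nitric oxide receptor soluble guanylate cyclase, had log2 fold changes of 3.54 ± 0.37 and 2.08 ± 0.40. *Pde5a* and *Pde1a*, phosphodiesterases that hydrolyse cyclic GMP, had values of 2.94 ± 0.35 and 4.84 ± 0.52. *Prkg1*, cyclic GMP-dependent protein kinase, averaged 5115 ± 841 against 1940 ± 739 CPM and was not called in the 102 nuclei (adjusted p = 0.0729). *S1pr1*, the sphingosine 1-phosphate receptor that stabilises endothelial junctions, was the lower gene, at 5.29 ± 12.9 against 150 ± 49.9 CPM. *Npr1*, the natriuretic peptide receptor that makes cyclic GMP, was not tested, with 0 UMIs in the 73 nuclei and 5 in the endothelial nuclei.

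In the 73 nuclei the channel genes went both ways. Of 25 genes for channels and calcium handling, 17 were tested in the 73 nuclei, 9 were higher and 3 lower, with a median log2 fold change of 1.12, and in the 102 nuclei 10 were higher and 0 lower. *Ano1*, the calcium-activated chloride channel of contractile pericytes, stood at 1314, 1032 and 406 CPM after saline and at 657, 698 and 991 CPM after IL-27. It averaged 850 ± 324 against 10.6 ± 19.9 CPM. *Cacna1c*, the pore of the L-type calcium channel, averaged 2527 ± 1061 against 184 ± 96.1 CPM. The lower genes were *Kcnma1*, the large-conductance potassium channel, *Cacna1d*, another L-type channel, and *Ryr2*, a calcium release channel, at log2 fold changes of -2.09, -1.59 and -1.47. In the 102 nuclei these 3 had values of -0.21, -0.27 and -0.44 and none was called. With mural and endothelial nuclei both limited to the vascular cluster, 11 of the 25 genes were tested, 7 were higher and 0 lower. The lower calls thus depended on which nuclei were compared.

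Of 5 PDGF ligand and receptor genes outside the rule, 1 was tested in the 73 nuclei and 2 in the 102, and each of them was lower. *Pdgfb*, the endothelial ligand of PDGFRB, which had 136, 118 and 132 CPM in the endothelial sums after saline and 61.9, 177 and 124 CPM after IL-27, had 1 UMI in the 73 mural nuclei, and it was tested in the 102 nuclei only, where it was lower (log2 fold change -4.94 ± 0.75). *Pdgfd*, another PDGFRB ligand, averaged 57.3 ± 45.5 in mural against 449 ± 97.8 CPM in endothelial nuclei (log2 fold change -3.19 ± 0.44). Of 18 Notch pathway genes, 7 were tested in the 73 nuclei and 3 were higher. They were *Heyl*, a Notch target at 148 ± 83.6 CPM with 0 UMIs in endothelial nuclei, and the coactivators *Maml3* and *Maml2*, at log2 fold changes of 0.96 and 0.75. *Maml3* was the 1 Notch gene called in the 102 nuclei, where *Heyl* was not tested.

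Of 18 VEGF and angiopoietin genes, 4 were tested in the 73 nuclei. The receptors *Tek* (TIE2), *Kdr* (VEGFR2) and *Nrp2* were lower, at 45.3 ± 38.5, 34.7 ± 28.0 and 58.1 ± 41.5 CPM against 378 ± 178, 196 ± 81.3 and 206 ± 56.2 CPM. The coreceptor *Nrp1* was higher in the 73 nuclei (log2 fold change 0.99 ± 0.30) but not in the 102 (0.14 ± 0.31, adjusted p = 0.819). *Angpt1*, the TIE2 ligand that mural cells supply, was below the filter, at 105 ± 91.2 against 21.7 ± 19.3 CPM. Of 33 TGF-beta and BMP genes, 13 were tested in the 73 nuclei and 2 were higher, *Ltbp1*, which stores latent TGF-beta, and *Bmpr1a*, a BMP receptor. *Id1* and *Smad7*, targets of this signaling, were lower, at 36.4 ± 26.8 against 228 ± 64.8 CPM and 63.4 ± 65.3 against 164 ± 42.2 CPM. Of 15 tested in the 102 nuclei, 0 were higher and 7 were lower.

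Basement membrane genes differed by subunit. Of 29, 17 were tested in the 73 nuclei, 10 were higher and 1 was lower, with a median log2 fold change of 1.83, and in the 102 nuclei 5 of 15 were higher and 3 lower, with a median of 0.33. *Lama2*, the laminin alpha 2 chain (chromosome 10, 26980036-27619758), stood at 1828, 2721 and 1097 CPM after saline and at 1080, 1205 and 1137 CPM after IL-27, against 30.9 CPM in the highest endothelial sum. *Col4a3* and *Col4a4*, minor type IV collagen chains, averaged 164 ± 121 and 130 ± 68.4 CPM against 2.80 ± 4.41 and 4.33 ± 6.75 CPM. *Col4a1*, a major chain of the same collagen, differed less, at 494 ± 127 against 262 ± 86.6 CPM. *Fn1*, fibronectin, was the gene on the lower side, at 69.9 ± 56.1 against 722 ± 172 CPM.

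Of 25 fibrosis genes, 5 were tested in the 73 nuclei, *Col3a1* and *Bgn* were higher and *Eln*, elastin, was lower, at 5.29 ± 12.9 against 239 ± 164 CPM. Fibroblast markers were present as well. Of 11 such markers 9 had a UMI in the 73 nuclei, with *Lum* and *Slc47a1* at 0, and their summed level ran from 1341 to 2127 CPM after saline and from 1142 to 1541 CPM after IL-27, against 15.5 to 173 CPM in endothelial sums. The 3 that were tested, *Cped1*, *Bicc1* and *Col3a1*, were all higher, in both sets of nuclei. Whether some of the nuclei are fibroblasts was not tested.

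Transport and barrier genes split between the cell types. Of 20 transport genes, 8 were tested in the 73 nuclei, 3 were higher and 4 lower. *Slc30a10*, a manganese exporter, averaged 291 ± 167 against 9.79 ± 8.07 CPM, and *Lrp1*, an endocytic receptor, averaged 142 ± 27.3 against 37.8 ± 18.2 CPM. The blood-retina barrier genes *Slc2a1* (glucose transporter GLUT1), *Abcb1a* (P-glycoprotein) and *Abcg2* were lower, at 46.1 ± 58.1, 57.2 ± 26.9 and 93.3 ± 63.5 CPM against 544 ± 157, 576 ± 233 and 611 ± 157 CPM. Of 20 junction and adhesion genes, 12 were tested, 2 were higher and 6 lower, with a median log2 fold change of -0.98. *Gjc1*, the gap junction protein connexin of mural cells, averaged 358 ± 73.4 against 48.1 ± 21.9 CPM, whereas *Ocln*, the tight junction protein occludin, averaged 6.12 ± 15 against 156 ± 36.5 CPM.

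Of 28 genes of the IL-27, gp130 and JAK-STAT list, 10 were tested in the 73 nuclei and 3 were higher, *Osmr*, the oncostatin M receptor, *Jak1* and *Stat2*, at log2 fold changes of 1.43, 1.30 and 0.98. None was lower, and 0 of 10 were called in the 102 nuclei. *Il27ra*, the specific chain of the IL-27 receptor, had 0 UMIs in the 73 nuclei. Set at 3 of 73 nuclei, this allows a share of nuclei with a UMI of up to 4.11%. It does not limit the share that expresses *Il27ra*. *Il27ra* was detected in 2 of 190 endothelial nuclei. *Il6st* was detected in 23 of the 73 nuclei (31.5%), 31.1% of endothelial nuclei and 14.4% of rod nuclei. Its log2 fold change against endothelium was 0.43 ± 0.39 (adjusted p = 0.465).

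Of 51 interferon response genes, 48 were measured and 19 tested in the 73 nuclei. None was higher and 4 were lower, *Gbp4* and *Trim30a*, both interferon-induced, *H2-K1*, of MHC class I, and *Rsad2*, an antiviral gene, with a list median of -0.40. *H2-K1* averaged 121 ± 111 against 397 ± 113 CPM. Among 31 inflammation genes, 6 were tested, 3 were higher and 1, the leukocyte adhesion gene *Vcam1*, was lower. *Il34*, the ligand of the CSF1 receptor that keeps microglia alive, stood at 228, 907 and 609 CPM after saline and at 422, 396 and 404 CPM after IL-27, against at most 24.1 CPM in any endothelial sum (log2 fold change 5.68 ± 0.55). *C1s1*, of the complement system, had a log2 fold change of 4.94 ± 0.97. Of 22 immediate early genes 1 was tested, *Klf2*, a flow-responsive factor of endothelium, which was lower. None of 14 tested ribosomal and oxidative phosphorylation genes was called.

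Horizontal-cell genes show how far the 2 sets of nuclei differ. In the 102 nuclei 4 of 5 tested horizontal markers were called higher than in endothelial nuclei, and in the 73 nuclei 1 was tested and not called. Their summed level in the 102 was 1493, 1600 and 621 CPM after saline and 141, 1416 and 477 CPM after IL-27. In the 73 it was 0, 62.6 and 244 CPM and 141, 634 and 183 CPM, with *Lhx1* at 0. All 10 rod markers had a UMI in the 73 nuclei, with a summed level of 514 to 1137 CPM after saline and 539 to 1248 CPM after IL-27, against 878 to 2231 CPM in endothelial sums. The endothelial set was itself mixed. Scrublet marked 16 of its 190 nuclei (8.42%) as doublets, against 0 of the 73. A cluster with a mean of 5.35 of 10 rod markers held 15 of the 190.

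To ask whether IL-27 changed the number of mural nuclei, their share of kept nuclei was compared. It was 0.111%, 0.226% and 0.180% in saline libraries 1, 2 and 6 and 0.117%, 0.292% and 0.170% in IL-27 libraries 4, 5 and 10. The means were 0.172 ± 0.0575% and 0.193 ± 0.0900% (SD, n = 3), a difference of 0.0208 percentage points (two-sided exact permutation test, p = 0.8, where 0.1 is the smallest p that 3 against 3 allows). The share of nuclei with 3 or more rule genes was 0.115 ± 0.0394% against 0.147 ± 0.0808% (exact permutation p = 0.7), and that of endothelial nuclei was 0.318 ± 0.0318% against 0.357 ± 0.0998% (exact permutation p = 0.6). The groups overlapped in each case. Set against the endothelial nuclei of the same library, the ratio had the opposite sign, with 0.0326 fewer mural nuclei per endothelial nucleus after IL-27.

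**Figure D4:**
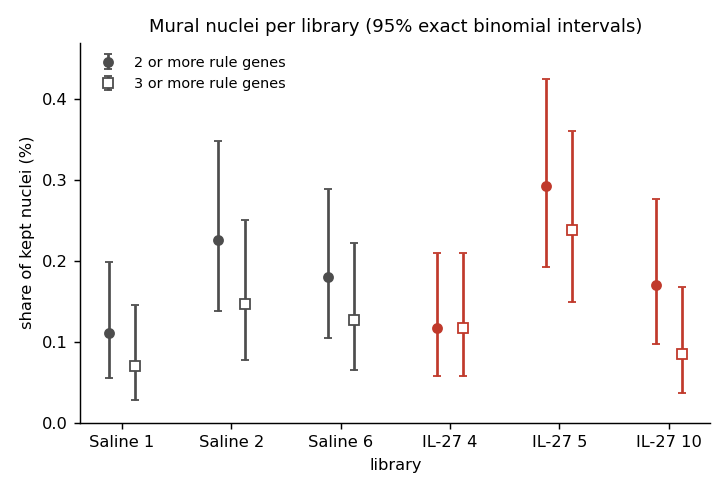
Share of kept nuclei (y axis, %) selected as mural in each saline (grey) and IL-27 (red) library (x axis), with 2 or more (circles) and 3 or more (squares) rule genes and 95% exact binomial intervals, which cover counting error only. IL-27 library 5 was highest at 0.292% and saline library 1 lowest at 0.111%.

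The response to IL-27 within mural nuclei was tested on the 3 against 3 sums. With edgeR, 0 of 1092 genes (0%) were called in the 102 nuclei and 0 of 350 (0%) in the 73. In each set the genes tested included 5 of the 8 mural genes that chose the nuclei. Before adjustment, 23 genes in the 102 were higher at p under 0.05 and 20 were lower, and in the 73 these numbers were 11 and 9. DESeq2 called 1 gene, *Lrrtm4*, in the 102 nuclei and 0 in the 73. The smallest adjusted p was 0.740 in the 102 and 0.489 in the 73. The groups did not overlap for 138 of 1091 uniquely named genes (12.6%), 98 up and 40 down, in the 102 nuclei and for 29 of 349 (8.31%), 6 up and 23 down, in the 73. The standard error of a log2 fold change had a median of 0.46 in the 102 nuclei and 0.39 in the 73.

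By the naming rule, the genes with the smallest p that were higher after IL-27 in the 102 nuclei included *Fhit*, *Nfib*, *Mgp* and *Wwox*, and none passed the adjusted test.

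*Mgp*, matrix Gla protein, an inhibitor of calcification and of BMP signaling, had 158 of its 161 UMIs in the 73 nuclei. There it stood at 457, 626 and 406 CPM after saline and at 563, 634 and 2495 CPM after IL-27, and the groups overlapped (log2 fold change 1.40 ± 0.52 in the 73 and 2.03 ± 0.55 in the 102, adjusted p = 0.900 in the latter). *Wwox*, a long gene at a common fragile site, stood at 457, 125 and 284 CPM in the 73 nuclei after saline and at 751, 571 and 807 CPM after IL-27, without overlap (log2 fold change 1.5 ± 0.43, adjusted p = 0.489). *Nfib*, a transcription factor, had 4, 10 and 9 UMIs in the 102 nuclei after saline and 6, 46 and 24 after IL-27. *Fhit*, another gene at a fragile site, had 1, 0 and 0 UMIs in the 73 nuclei after saline and 6, 13 and 11 after IL-27, and was below their filter.

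The named genes on the lower side in the 102 nuclei were *Lrrtm4*, *Gm26936*, *Vps13c*, *Vwc2* and *Nt5c2*. *Lrrtm4*, a synaptic adhesion gene of neurons, had 28, 170 and 128 UMIs after saline and 0, 17 and 1 after IL-27, and 97.1% of these lay in the nuclei with 2 rule genes. In the 73 nuclei it had 0, 0 and 5 UMIs after saline and 0, 5 and 0 after IL-27. *Vwc2*, a secreted BMP antagonist of neurons, had 91.3% of its UMIs in the nuclei with 2 rule genes, and *Gm26936*, *Vps13c* and *Nt5c2* had 79.3%, 76.9% and 66.2%.

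In the 73 nuclei *Cacna1c* (chromosome 6, 118587240-119196418) was among the leading genes on the lower side, at 3884, 3472 and 2965 CPM after saline and at 1267, 1887 and 1688 CPM after IL-27. The groups did not overlap, and the log2 fold change was -0.94 ± 0.30 (adjusted p = 0.584). In the 102 nuclei the groups overlapped and the value was -0.27 ± 0.45. *Pde5a* stood at 571, 719 and 731 CPM after saline and at 422, 365 and 73.4 CPM after IL-27 (log2 fold change -1.06 ± 0.44, adjusted p = 0.748). *Cyp7b1*, an oxysterol hydroxylase, stood at 857, 1627 and 2072 CPM after saline and at 704, 539 and 257 CPM after IL-27 (log2 fold change -1.5 ± 0.44, adjusted p = 0.489). For *Pde5a* and *Cyp7b1* the groups did not overlap either.

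*Errfi1*, a feedback inhibitor of EGF receptor signaling (chromosome 4, 150853919-150868892), was singled out after its values were seen. It had 2, 7 and 2 UMIs in the 73 nuclei after saline and 26, 14 and 19 after IL-27. As CPM these were 114, 219 and 81.2 against 1220, 222 and 697, so that the groups did not overlap but the lowest IL-27 library lay just above the highest saline library. In endothelial nuclei it stood at 87.4, 59.1 and 36.1 CPM after saline and at 61.9, 28.3 and 49.6 CPM after IL-27. *Errfi1* was below the filter on low counts and so was not tested in either set of nuclei. Without that filter edgeR gave a log2 fold change of 2.88 (adjusted p = 0.00799) in the 102 nuclei and 2.30 (adjusted p = 0.0462) in the 73. DESeq2 did not call *Errfi1* in either set. The test of a different response in mural and endothelial nuclei gave 3.38 ± 0.73 (adjusted p = 0.323).

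**Figure D5:**
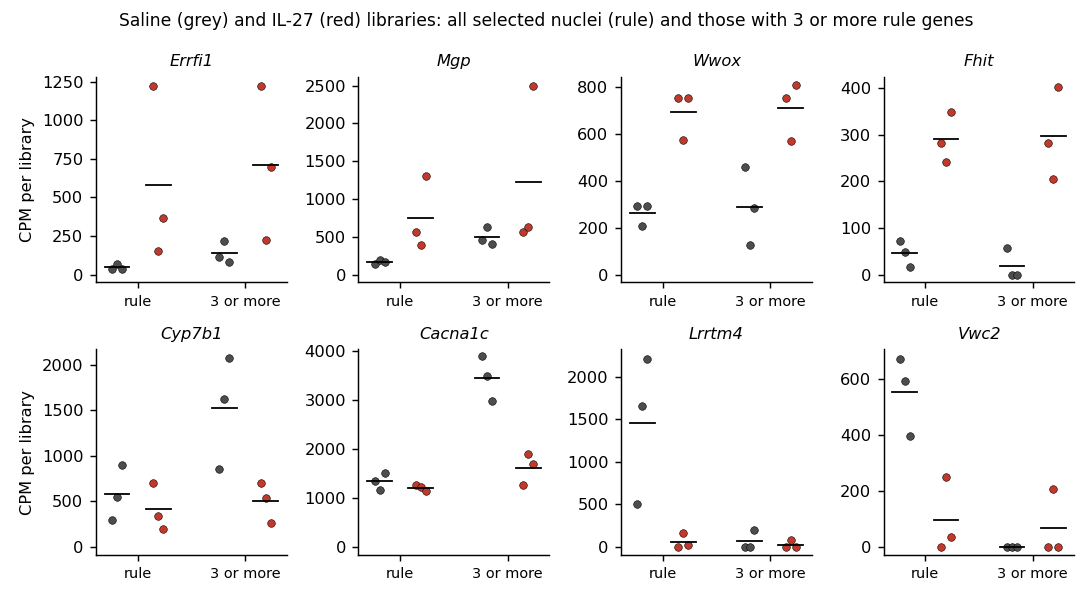
CPM (y axis) of 8 genes in saline (grey) and IL-27 (red) libraries, 1 point per library and a bar at the mean of 3, for all 102 nuclei (rule) and the 73 with 3 or more rule genes. *Lrrtm4* and *Vwc2* are high after saline in the 102 nuclei and at 0 in most libraries of the 73, whereas *Errfi1* and *Wwox* lie higher after IL-27 in both.

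As lists, mural genes took no common direction that held in both sets of nuclei. Of the other mural genes, 10 of 12 tested had a log2 fold change above 0 in the 102 nuclei, with a median of 0.53 beside -0.03 for all genes. In the 73 nuclei, where no nucleus with 2 rule genes enters, 3 of 11 lay above 0, with a median of -0.22. The channel genes had medians of 0.07 and -0.23, and the basement membrane genes of 0.64 and -0.04, in the 102 and the 73. Of the interferon list 2 genes were tested in the 102 nuclei and 1, *Oasl2*, in the 73, at -0.45 ± 0.46. The summed level of this list in the 102 ran from 1511 to 2517 CPM after saline and from 3113 to 3359 CPM after IL-27. In the 73 it ran from 2970 to 4942 and from 3192 to 4513 CPM, with overlap. The sums of the gp130 and JAK-STAT list, and of the other mural genes, likewise overlapped in the 73 but not in the 102. A treatment effect on these sums was not tested. *Socs3*, a feedback target of STAT3, had 2 UMIs in the 73 nuclei, both after IL-27.

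Whether mural and endothelial nuclei responded differently was tested by the interaction over the 12 sums. In the 102 nuclei edgeR called 0 of 3207 genes (0%), and before adjustment p was under 0.05 for 76 genes in the higher and 81 in the lower direction, and DESeq2 called 0. With the 73 nuclei 5 genes were called, *Kcnh7*, *Sgcd*, *Hs6st3* and *Arr3* higher and *Sntb1* lower. The mural UMIs of *Hs6st3* (97) and *Sgcd* (16) all came from IL-27 library 5. *Kcnh7* had 19 there, 3 in IL-27 library 10 and 0 in the other libraries. *Arr3*, a cone marker, had 2, 1 and 0 mural UMIs after saline and 23, 0 and 0 after IL-27. Its endothelial UMIs were 33, 0 and 42 after saline and 1, 2 and 1 after IL-27. *Sgcd* had 25, 33 and 38 endothelial UMIs after saline and 1, 3 and 0 after IL-27, and *Sntb1* had 0, 0 and 0 and 7, 17 and 2. In endothelial nuclei alone, 2 of 2110 genes were called, *Adamtsl1* higher and *Sgcd* lower after IL-27.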

How the data were processed

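Nuclei from frozen retinas were profiled with 10x Chromium 3′ libraries. The authors aligned and counted reads with Cell Ranger (9.0.1 in the submitters' notes, 8.0.1 in the matrix headers). The deposited values are whole UMI counts per gene and nucleus without normalization. The genome build is not given in the sources used here. GENCODE vM21 (GRCm38) held 32235 of 32285 gene IDs (99.8%) and gave the positions.

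Libraries were grouped by their labels. Counts of selected nuclei were summed per library. Genes passing filterByExpr (at least 10 counts, 15 in total) were scaled by TMM and tested by the quasi-likelihood test of edgeR 4.0.16 in R 4.3.3, with Benjamini-Hochberg adjustment at 0.05. DESeq2 1.42.0 was an alternative. Nuclei were clustered with scanpy 1.11.5, and doublets were marked by Scrublet but kept (1 of 102 mural and 16 of 190 endothelial nuclei). Shares were compared by exact permutation, and intervals are exact binomial at 95%. Fold bounds set a group at 0 to 3 counts over the group. For genes with 0 UMIs, the limit on the share of nuclei is likewise 3 nuclei over the group and not an exact interval. The test was tried on simulated data.

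Members and gene lists were chosen with earlier results of these data known. Named genes were the rule genes, up to 5 genes per list with the highest mean CPM, *Il27ra* and *Il6st*, the 10 called genes with the largest change each way against endothelium that pointed the same way in all 6 libraries, and, as no gene passed for IL-27, the 5 each way with the smallest p whose groups did not overlap. Other genes, and the division at 3 rule genes, were chosen after their values were seen. Results of some genes are not reported here.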

Additional observations from a re-analysis of the deposited data

Results flagged for a closer look

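A signal appeared in nuclei that the rule leaves out. There were 76 nuclei with 3 or more rule genes that were excluded for a UMI of an absent gene, and 64 of them (84.2%) lay in the vascular cluster. They carried a median of 14 of the 30 other mural genes and had a median of 3483.5 UMIs. The absent genes found were *Abca8a* in 41 nuclei, *Trpm1* in 23, *Vwf* in 21, *Pecam1* in 19, *Gad1* in 12, *Inpp5d* in 8 and *Slc17a6* in 2. Whether these are mural nuclei, doublets or nuclei with free RNA was not tested.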

How the results depend on the processing

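No paired analysis was possible because the groups share no replicate numbers. For IL-27 against saline in the 102 nuclei, DESeq2 called 1 gene (*Lrrtm4*, log2 fold change -4.41) and edgeR without a filter called 14. In the 73 nuclei, a set chosen after seeing the data, no filter gave 22, and leaving out 1 library gave 0 to 6 calls, with 6 without saline 6 and 1 without IL-27 5. Of the 702 differences from endothelium, a stricter filter left 385, no library block 430, and leaving out 1 library 475 to 671. The 73 nuclei without a filter gave 1153, and the vascular cluster without a block 322. The interaction had 0 calls, but 5 in the 73 nuclei, 3 in the vascular cluster, 4 in a wider mural set without the absent-gene limit, and 0 to 3 without 1 library, with 3 without IL-27 10. The difference in share was 0.0208 points and turned to -0.0326 as a ratio to endothelial nuclei. Without 1 library it ran from -0.0288 to 0.0589, at -0.00974 without saline 1 and -0.0288 without IL-27 5. In the wider set *Nfib* turned to -0.12 and *Lrrtm4* to 0.58. The causes were not tested. The 20 genes with the largest differences from endothelium kept direction and call in the 327 alternative values where they were tested. They were picked from these data for a call and a shared direction in all 6 libraries, so this is no independent check. Calls among list genes differed between the 102 and the 73 nuclei as given above. The alternative by clusters with 30% members had no cluster, and removing mixed nuclei left 0 mural nuclei in IL-27 10. Sums of 7 to 22 nuclei per library limit what low genes can show.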
